A study of Mus musculus with 7 samples.

Results

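The tumor necrosis factor (TNF) superfamily was examined here at the level of open chromatin in airway macrophages (AMs): 273 of the 90376 accessible regions (peaks) of the baseline ATAC-seq table were annotated to a ligand, a receptor or a TRAF adaptor of this family. Members were all peaks whose assigned gene symbol starts with Tnfrsf or Tnfsf, or is Tnf, Lta, Ltb, Ltbr, Cd40, Cd27, Cd70, Fas, Fasl or one of Traf1 to Traf5. They belonged to 44 genes, while *Tnfrsf4* and *Tnfrsf11b* fitted the same rule in the RefSeq annotation but had no peak assigned. In ATAC-seq a transposase inserts sequencing adapters into DNA that is not covered by nucleosomes, so the reads in a region measure how open it is, and no measurement of RNA or protein entered the comparison.

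The libraries came from 3 wild-type (WT) and 4 *Scnn1b*-Tg mice (strain C57BL/6, females aged 6 weeks, the WT animals being littermates), and none of the animals had received a treatment. *Scnn1b*-Tg mice carry a transgene for the beta subunit of the epithelial sodium channel under the club cell secretory protein (CCSP) promoter, which is active in airway epithelium and not in AMs, and they develop mucus obstruction of the airways. AMs were sorted fresh from digested lungs as CD45+ Siglec-F+ CD11c+ cells. Replicate numbers below are those of the data columns. The p-values set the difference between the genotypes against the spread of these 7 libraries within their genotypes.

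TNF superfamily ligands are mostly trimeric membrane proteins, some of them shed from the cell, that cluster their receptors. Receptors with a death domain can recruit caspases, the other receptors bind TRAF adaptors that lead to NF-kB and MAP kinase signalling, and decoy receptors bind a ligand without passing on a signal. Lung macrophages are known as a source of TNF itself and as cells that respond to it.

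The regions on which the comparison turned are shown first by the 200 bases at their centre, read on the plus strand of GRCm38.p6 (the mm10 assembly) from the RefSeq genome. Capitals mark strings that matched a searched motif on either strand. At *Tnfsf13b*, which encodes the B cell survival factor BAFF, the start peak was centred on the first coding exon, and its match was to the C/EBP string TTGCNNAA on the minus strand. A further *Tnfsf13b* peak lay 10562 bp from the start and held no match, as did a peak in intron 8 of *Tnfrsf1b*, which encodes a TNF receptor. The start peak of *Tnfsf15*, a ligand of T cells and innate lymphoid cells, held a match to the NF-kB motif beginning at base 50, upstream of the gene.
Tnfsf13b start peak, chr8:10006996-10007195: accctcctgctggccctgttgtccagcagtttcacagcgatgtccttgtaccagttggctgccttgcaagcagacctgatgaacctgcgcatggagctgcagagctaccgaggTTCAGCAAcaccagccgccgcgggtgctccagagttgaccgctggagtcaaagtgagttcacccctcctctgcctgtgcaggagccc
Tnfsf13b second peak, chr8:10017620-10017819: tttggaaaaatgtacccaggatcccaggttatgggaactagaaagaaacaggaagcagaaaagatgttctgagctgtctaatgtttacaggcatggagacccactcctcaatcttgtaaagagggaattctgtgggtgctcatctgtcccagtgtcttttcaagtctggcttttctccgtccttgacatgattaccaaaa
Tnfrsf1b intron peak, chr4:145222061-145222260: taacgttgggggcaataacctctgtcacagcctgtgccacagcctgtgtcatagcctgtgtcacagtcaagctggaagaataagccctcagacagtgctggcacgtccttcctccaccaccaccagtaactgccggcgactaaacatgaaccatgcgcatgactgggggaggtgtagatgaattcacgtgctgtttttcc
Tnfsf15 start peak, chr4:63745294-63745493: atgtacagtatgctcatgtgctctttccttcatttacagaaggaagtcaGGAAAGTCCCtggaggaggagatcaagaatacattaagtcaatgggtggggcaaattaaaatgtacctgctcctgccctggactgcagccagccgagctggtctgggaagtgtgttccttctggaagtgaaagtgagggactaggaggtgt

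Libraries held between 20971521 and 56121809 reads in peaks, a 2.68-fold range, and the deposited values were scaled by 1 factor per library. Along the first principal component, with 43.6% of the variance, WT replicate 3 and *Scnn1b*-Tg replicate 4 stood apart from the other 5 libraries. All 13 alveolar macrophage markers examined had a promoter peak, at a median percentile of 63.2 among the promoter peaks of all genes, whereas no promoter peak was assigned to the T cell genes *Cd3e*, *Cd4*, *Cd8a* and *Trac*, the B cell gene *Cd79a*, or the eosinophil genes *Epx*, *Prg2* and *Prg3*. A promoter peak was present for 4 of 8 T cell, 4 of 6 B cell, 2 of 5 eosinophil, 5 of 7 neutrophil, 5 of 5 monocyte, 4 of 6 dendritic cell and 4 of 7 epithelial markers. No peak of any of these 8 marker lists reached an unadjusted p under 0.05 between the genotypes in limma (0 peaks), where 2.01% of all peaks did. The alveolar macrophage list held 189 peaks and the others between 11 (T cell) and 45 (lung epithelium). At that share, 0 of so few peaks in the shorter lists carries little information. Across all 90376 peaks, 1 had a limma adjusted p under 0.05 with an absolute log2 fold change above 1, which is 0.00111% of peaks.

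Many TNF family peaks lay far from a start. Of the 273 peaks, 115 (42.1%) were distal intergenic, against 26.8% of all peaks, and 70 (25.6%) lay in promoters, against 31.1%. Most of these belonged to ligands, with 79 of their 121 peaks (65.3%) distal intergenic. By overlap with GENCODE gene models, 118 peaks touched the gene they were assigned to, 32 touched another gene only and 123 touched no gene, so that for those peaks the assignment rests on the nearest start. The genes with most peaks were *Tnfsf18* (21 peaks), the ligand of the costimulatory receptor GITR, *Fasl* (19), the ligand of the death receptor Fas, *Tnfrsf1b* (18), *Fas* (14) and *Tnfsf10* (13), which encodes TRAIL. None of the 19 *Fasl* peaks touched the *Fasl* gene (0 peaks), and the nearest lay 10.2 kb from its start.

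The first question was which family members have an open start in AMs. Levels are given as the normalized read count per kb of the peak nearest a transcription start, within 3 kb, and 42 of the 44 genes had such a peak, all but *Fasl* and *Tnfrsf8* (CD30). Their median of 511 per kb was close to the 542 of all 14709 genes with a promoter peak, and 9 lay above the 75th and 13 below the 25th percentile of those genes. Among the ligands, the order ran from *Tnf* down to *Tnfsf11* (RANKL). The peak over *Tnf*, the main inflammatory cytokine of the family, held 3997, 3522 and 3120 normalized reads in WT and 3737, 3685, 3005 and 3059 in *Scnn1b*-Tg AMs, or 1758 ± 218 (SD, n = 3) against 1672 ± 195 (n = 4) per kb, at the 93.3rd percentile. The genotypes overlapped at *Tnf*.

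Next among the ligands came a stretch of chromosome 11 with *Tnfsf12* (TWEAK), *Tnfsf13* (APRIL) and *Tnfsfm13*, annotated as a membrane-bound member 13. *Tnfsf13* reached 1372 ± 152 per kb in WT and 1264 ± 117 in *Scnn1b*-Tg AMs, *Tnfsfm13* 1252 ± 178 and 1375 ± 105, and *Tnfsf12* 1170 ± 299 and 1133 ± 296. The *Tnfsf13* and *Tnfsf12* peaks lie over exons of *Tnfsfm13* as well, and the *Tnfsfm13* peak, 2738 bp from its start, lies inside *Tnfsf12*, so these levels cannot be given to 1 gene each. The lymphotoxins, which pair with *Ltbr* in lymphoid organ development, differed between each other, with *Ltb*, whose peak lay 762 bp upstream of the gene, at 1007 ± 168 and 922 ± 224 and *Lta*, whose nearest peak lay 2913 bp upstream, at 277 ± 76.0 and 234 ± 123. At the low end stood *Cd70* with a mean of 62.8 per kb and *Tnfsf11* with 61.2, both ligands of lymphocyte or osteoclast receptors, below the 5th percentile of all genes.

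Receptor starts covered the same range. *Tnfrsf14*, the receptor HVEM for the ligand LIGHT, had 1647 ± 216 per kb in WT and 1642 ± 163 in *Scnn1b*-Tg AMs. *Tnfrsf23*, a mouse decoy receptor for TRAIL, followed with 1217 ± 40.5 and 1179 ± 85.8. The peak nearest *Tnfrsf9* had 1071 ± 226 and 1075 ± 271 but also lay over an exon of *Park7*, so its signal cannot be given to 1 gene. The 2 receptors of TNF overlapped in level, with *Tnfrsf1b* at 830 ± 52.6 and 803 ± 102 and *Tnfrsf1a*, the form with a death domain, at 746 ± 105 and 766 ± 71.8. *Ltbr* had 591 ± 184 and 559 ± 151 and *Fas* 433 ± 119 and 402 ± 100. *Cd40*, the receptor for help from T cells, was far lower, at 124 ± 18.2 and 142 ± 26.1, and *Cd27*, a costimulatory receptor of T and B cells, was lowest of the 42 genes with a mean of 56.7, although neither of its peaks touches the gene and both touch another one.

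Among TRAF adaptors, *Traf1* had the lowest level. *Traf2* had 1324 ± 309 per kb in WT and 1313 ± 229 in *Scnn1b*-Tg AMs, and *Traf5*, which acts with it upstream of NF-kB, had 1167 ± 239 and 1152 ± 122. *Traf3*, which holds back the non-canonical NF-kB pathway, had 726 ± 124 and 697 ± 76.6. *Traf1*, itself known as an NF-kB target, had a mean of 75.8, at the 8.59th percentile, at its most open start, and its peak over the RefSeq start (chr2:34961511-34961919) a mean of 74.0. By role, the median percentile was 30.6 for ligands, 41.3 for death domain receptors, 39.4 for other receptors, 60.6 for TRAF adaptors and 68.0 for the 2 decoy receptors with a peak. In the order of mean levels, all 41 pairs of neighbouring genes overlapped over the libraries, so the order is resolved only between genes further apart.

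**Figure D1:**
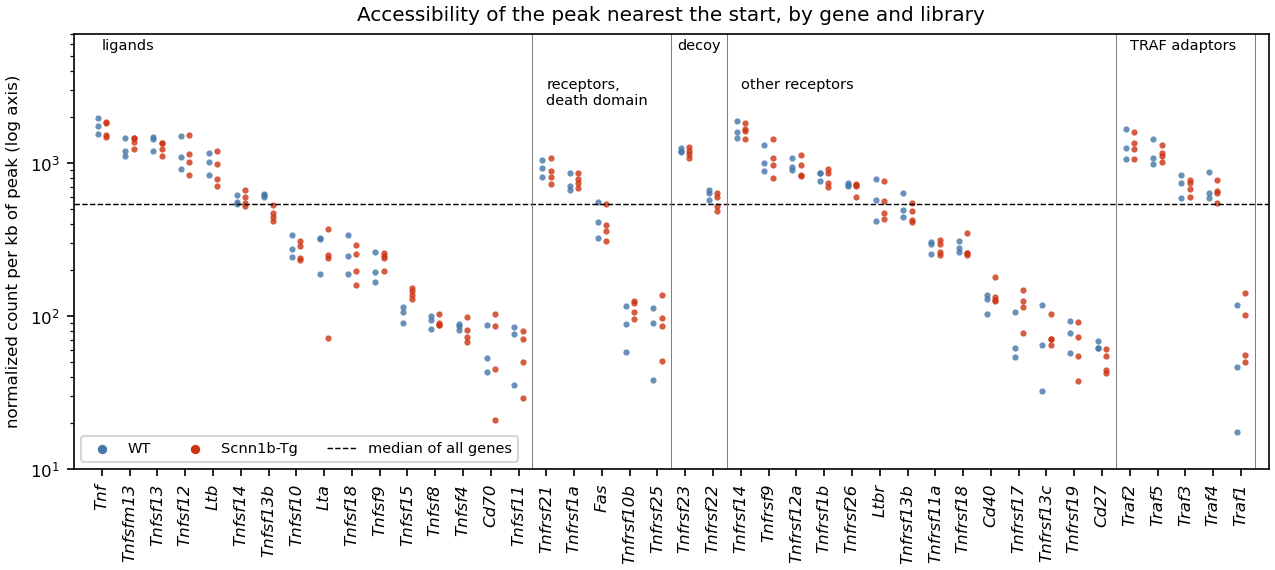
Normalized read count per kb (log axis) of the peak nearest the start of each of 42 genes, 1 point per library, 3 WT and 4 *Scnn1b*-Tg, grouped by role; the dashed line is the median of all genes, 542. Levels fall from 1709 per kb at *Tnf* to 56.7 at *Cd27*. Of the 42 genes, the genotypes do not overlap at *Tnfsf13b*, *Tnfsf15* and *Cd27*. Over all peaks, of every class, 3.23% do not overlap, and the share among the start peaks of all genes is not given. At *Cd27* the lowest WT library (31.97 normalized reads) barely exceeds the highest *Scnn1b*-Tg library (31.73), with a limma unadjusted p of 0.249.

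The second question was whether accessibility at the family differed between *Scnn1b*-Tg and WT AMs. In limma over all peaks, 0 of the 273 peaks had an adjusted p under 0.05, and edgeR and DESeq2 on recovered reads also gave 0. At an unadjusted p under 0.05 there were 10 member peaks (3.66%), 4 higher and 6 lower in *Scnn1b*-Tg AMs, where 2.01% of all peaks passed, 1.49% higher and 0.517% lower. Of these 10 peaks, 4 belonged to *Tnfsf13b*, and without that gene 6 of 269 peaks (2.23%) passed, a share near that of all peaks. edgeR and DESeq2 each gave 10 member peaks at an unadjusted p under 0.05. Of all 90376 peaks, edgeR gave 1752 at that threshold. The count over all peaks is not given for DESeq2, so its 10 cannot be called particular to the family. The libraries of the genotypes did not overlap at 13 member peaks (4.76%) in 11 genes, 5 higher and 8 lower, against 3.23% of all peaks, 1.92% higher and 1.31% lower.

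Across the 273 peaks the log2 fold change ran from -1.03 to 0.76, with a median of -0.02 beside -0.01 for all peaks. The difference was positive at 121 peaks (44.3%), against 47.8% of all peaks. By role, 6 of 121 peaks of ligands (4.96%) passed the unadjusted threshold, 1 higher and 5 lower, and 4 of these were the *Tnfsf13b* peaks. Among receptors, 1 of 39 peaks of death domain receptors (2.56%) was lower and 2 of 76 peaks of other receptors (2.63%) were higher. Of 32 TRAF peaks, 1 (3.12%) was higher. Among all peaks 2.01% passed. No peak of a decoy receptor passed (0 of 5), and so few peaks carry little information.

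**Figure D2:**
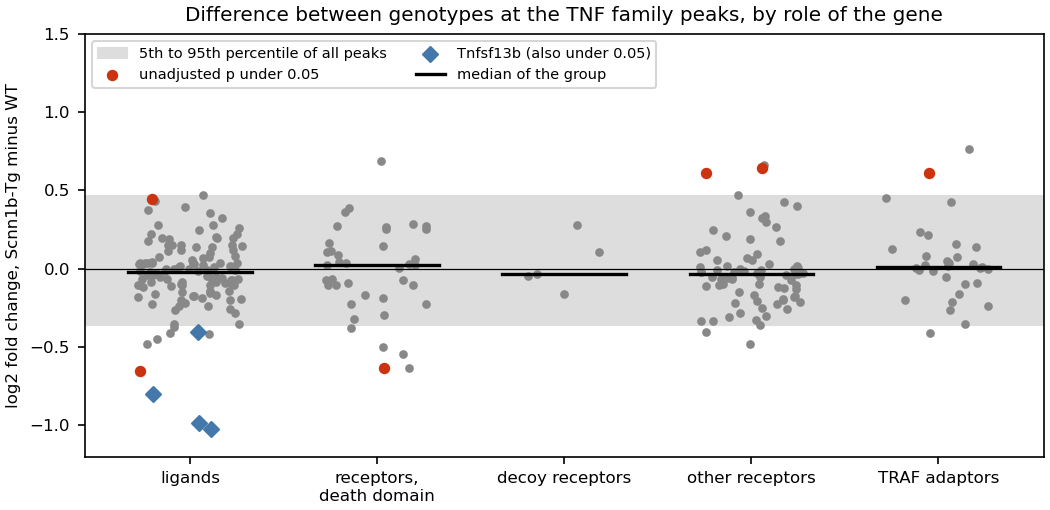
Log2 fold change, *Scnn1b*-Tg minus WT, of each of the 273 peaks by role of its gene (vertical axis); the grey band spans the 5th to 95th percentile of all peaks and bars mark group medians, which lie between -0.03 and 0.02. Of the 4 *Tnfsf13b* peaks (diamonds, -0.41 to -1.03), 3 are the lowest of all ligand peaks, and 6 other peaks have an unadjusted p under 0.05.

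Among ligands, *Tnfsf13b* was lower in *Scnn1b*-Tg AMs at each of its 4 peaks. BAFF, its product, is made by myeloid cells and keeps B cells alive. The start peak (chr8:10006183-10008010) held 1145, 1124 and 1101 normalized reads in WT and 807, 762, 864 and 970 in *Scnn1b*-Tg AMs. Each *Scnn1b*-Tg library was below each WT library. The log2 fold change was -0.41 ± 0.13 (SE; limma unadjusted p = 0.0109, adjusted p = 1).

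The peak 10562 bp from the start (chr8:10017216-10018224), inside the *Tnfsf13b* gene and over a single-exon antisense model named Gm44789, held 347, 240 and 266 reads in WT and 186, 123, 190 and 152 in *Scnn1b*-Tg AMs. Again no *Scnn1b*-Tg library reached the lowest WT library. The log2 fold change was -0.80 ± 0.21 (limma unadjusted p = 0.00269), and leaving out any 1 library kept the unadjusted p at or below 0.0181.

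At chr8:10026098-10026659, over exon 5 of 5 of a *Tnfsf13b* transcript, the reads were 100, 59.3 and 53.7 in the WT libraries and 56.0, 18.1, 41.1 and 31.9 in *Scnn1b*-Tg AMs. The log2 fold change was -0.98 ± 0.37 (limma unadjusted p = 0.0217). At chr8:10030602-10031547, by the start of another of its transcripts, they were 140, 120 and 43.4 in the WT libraries and 59.6, 33.5, 42.7 and 43.0 in *Scnn1b*-Tg AMs, a log2 fold change of -1.03 ± 0.37 (limma unadjusted p = 0.0184). The genotypes overlapped at both of these low peaks. WT replicate 1 was the highest library and *Scnn1b*-Tg replicate 2 the lowest at all 4 peaks, and without WT replicate 1 the unadjusted limma p of these weaker peaks was 0.110 and 0.101.

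Summed over its 4 peaks, *Tnfsf13b* had 1733, 1543 and 1464 normalized reads in WT and 1109, 937, 1137 and 1197 in *Scnn1b*-Tg AMs. The groups did not overlap, at 1580 ± 138 (SD, n = 3) and 1095 ± 111 (n = 4), a log2 fold change of -0.53 ± 0.13 (SE). In the limma fit of sums over 17797 genes its unadjusted p was 0.00166, the 7th smallest, and its adjusted p was 1. No gene of the table passed an adjusted p under 0.05 in this fit (0 of 17797, 0%, by limma), while 204 (1.15%) had an unadjusted p under 0.05. Of the 44 family genes *Tnfsf13b* was the single one with an unadjusted p under 0.05, the next being 0.176.

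Among the 7625 genes with at least 4 peaks, *Tnfsf13b* was the 1 gene (0.0131%) whose every peak was lower at an unadjusted limma p under 0.05, and 6 genes (0.0787%) had at least 4 such peaks. The bound of 4 equals the number of *Tnfsf13b* peaks, and a gene with more peaks meets it less easily. These counts therefore describe the gene and are not a test. The 4 *Tnfsf13b* peaks are not independent, since they come from the same libraries and the same 25.4 kb. Within 300 kb on either side lay 5 other peaks, assigned to *Lig4* and *Myo16*, with log2 fold changes from -0.13 to 0.04 and 0 at an unadjusted p under 0.05. Leaving out both libraries that stood apart gave a log2 fold change of the sum of -0.63 (limma unadjusted p = 0.000305), and leaving out any 1 library an unadjusted p between 0.00132 and 0.00895. The summed peaks of the B cell list ran from 2849 to 3880 reads in WT and from 2770 to 3858 in *Scnn1b*-Tg libraries. Those of the alveolar macrophage list ran from 69378 to 91383 and from 68419 to 94625. The monocyte list had 14740 to 15038 and 14389 to 14904, and the dendritic cell list 5316 to 6367 and 5088 to 6768. Whether the mix of cells bears on the *Tnfsf13b* difference was not tested.

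**Figure D3:**
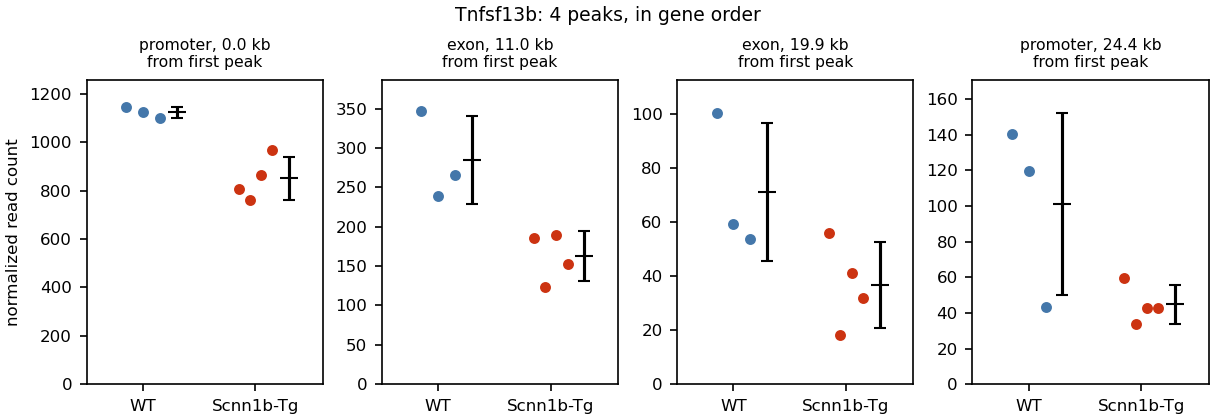
Normalized read counts (vertical axes, from 0) of the 4 *Tnfsf13b* peaks in gene order, 1 point per library, with the mean and SD of 3 WT and 4 *Scnn1b*-Tg libraries; distances are between the starts of the peaks. The genotypes separate at the first 2 peaks (lowest WT 1101 and 240, highest *Scnn1b*-Tg 970 and 190) and overlap at the others.

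The receptors that bind BAFF or its relative APRIL did not share this pattern. The sums over their peaks had log2 fold changes of -0.06 ± 0.12 for *Tnfrsf13b* (TACI, 8 peaks), 0.37 ± 0.29 for *Tnfrsf13c* (the BAFF receptor, 2 peaks) and 0.23 ± 0.22 for *Tnfrsf17* (BCMA, 2 peaks), with unadjusted limma p-values of 0.618, 0.227 and 0.315. A *Tnfrsf13c* peak 5093 bp from the start, downstream of the gene, held 34.9, 49.8 and 36.5 reads in WT and 52.3, 57.1, 71.2 and 67.6 in *Scnn1b*-Tg AMs. All *Scnn1b*-Tg libraries were above all WT libraries there, by a log2 fold change of 0.61 ± 0.24 (limma unadjusted p = 0.0273). The start peak of *Tnfrsf17* was low in every library, between 19 and 52.3 reads, and its genotypes overlapped.

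Besides BAFF, 2 ligands had a peak that passed the unadjusted threshold. The start peak of *Tnfsf15* (chr4:63744633-63746156) held 174, 138 and 162 reads in WT and 208, 197, 234 and 222 in *Scnn1b*-Tg AMs, which did not overlap. Its level per kb was 104 ± 12.3 in WT and 141 ± 10.7 in *Scnn1b*-Tg AMs, at the 18.8th percentile of all genes, with a limma unadjusted p of 0.0246. *Tnfrsf25*, the receptor of this ligand, had 80.9 ± 38.7 and 93.0 ± 35.6 per kb, with overlap. At *Tnfsf10*, whose product TRAIL can trigger apoptosis, a peak annotated to the untranslated end of the gene (chr3:27338499-27338941) held 47.6, 51.0 and 49.1 reads in WT and 34.1, 29.9, 30.0 and 30.1 in *Scnn1b*-Tg AMs. The groups did not overlap, with a log2 fold change of -0.65 ± 0.24 (limma unadjusted p = 0.0186). The sum over all 13 *Tnfsf10* peaks, of which 2 touched the gene, differed by -0.09 (limma unadjusted p = 0.351).

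Of the receptors, *Tnfrsf1b* had 1 peak that was higher in *Scnn1b*-Tg AMs and 17 with an unadjusted limma p above 0.05. *Tnfrsf1b* is the TNF receptor without a death domain, used mainly by immune cells. The peak in intron 8 of 9 (chr4:145221858-145222465), 24405 bp from the start, held 107, 106 and 142 reads in WT and 178, 175, 174 and 208 in *Scnn1b*-Tg AMs. All 4 *Scnn1b*-Tg libraries were above the WT libraries, a log2 fold change of 0.64 ± 0.19 (limma unadjusted p = 0.00523, adjusted p = 1), and the unadjusted p stayed at or below 0.0274 without any 1 library. The sum over the 18 peaks, of which 8 touched the gene, had a log2 fold change of -0.01 (limma unadjusted p = 0.894). The most open ones, such as the peak 5507 bp from the start with 2030 ± 321 reads in WT and 2116 ± 322 in *Scnn1b*-Tg AMs, differed little.

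At *Fas*, the death receptor, 14 peaks spread over a wide distal region. The peak 78389 bp from the start held 67.2, 88.9 and 87.9 reads in WT and 34.1, 66.2, 61.7 and 51.0 in *Scnn1b*-Tg AMs, with no overlap, a log2 fold change of -0.63 ± 0.27 (limma unadjusted p = 0.0364). Another, 45926 bp from the start, went the other way, with 20.4, 28.5 and 18.3 reads in WT and 40.2, 43.5, 41.1 and 23.3 in *Scnn1b*-Tg AMs, and its log2 fold change of 0.69 ± 0.32 missed the unadjusted threshold (limma unadjusted p = 0.0530). The genotypes overlapped there. Summed over the 14 *Fas* peaks, of which 2 touched the gene, the log2 fold change was 0.01 (limma unadjusted p = 0.945).

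Among TRAF adaptors, a peak in intron 1 of *Traf5* (chr1:192087087-192087407) held 60.4, 52.2 and 81.1 reads in WT and 97.4, 78.9, 117 and 99.5 in *Scnn1b*-Tg AMs. *Scnn1b*-Tg replicate 2 fell below WT replicate 3, and the log2 fold change was 0.61 ± 0.23 (limma unadjusted p = 0.0224). The *Traf1* start peak was among the most variable of the family, with 40.8, 15.4 and 104 reads in WT and 43.8, 49.0, 88.6 and 123 in *Scnn1b*-Tg AMs. Its highest libraries were the pair that stood apart on the first principal component, 1 of each genotype.

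Leaving out 1 library raised the unadjusted limma p above 0.05 at 7 of the 10 peaks, with the highest values, from 0.0549 to 0.111, reached without WT replicate 1 or without WT replicate 2. The peaks that stayed below were the first 2 of *Tnfsf13b* and the *Tnfrsf1b* intron peak. The remaining genes of the 15 named for their smallest p had unadjusted limma p-values from 0.0650 to 0.168. They were *Tnfrsf14* at 6139 bp from its start (94.9 to 142 reads in WT, 144 to 168 in *Scnn1b*-Tg AMs, no overlap), *Tnfrsf17*, *Tnfrsf21* (a death domain receptor, 43.9 to 51.9 and 21.5 to 40.8 reads, no overlap), *Tnfsf18*, *Tnfrsf19*, *Fasl*, *Tnfrsf8* and *Tnfsf11*. The *Fasl* peak was the most open of these, with 977, 962 and 1207 reads in WT and 896, 775, 903 and 967 in *Scnn1b*-Tg AMs, 52697 bp from the start.

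**Figure D4:**
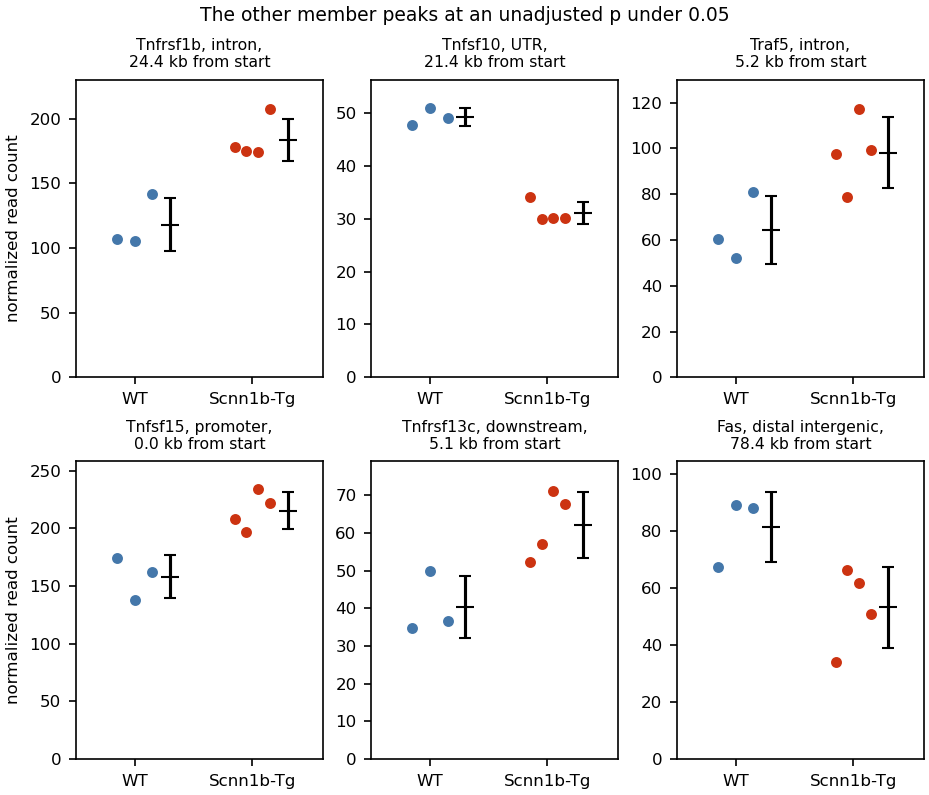
Normalized read counts (vertical axes, from 0) of the 6 other peaks with an unadjusted p under 0.05, 1 point per library, with mean and SD of 3 WT and 4 *Scnn1b*-Tg libraries. At *Tnfrsf1b*, *Tnfsf10*, *Tnfsf15*, *Tnfrsf13c* and *Fas* the genotypes do not overlap, and at *Traf5* WT replicate 3 (81.1) is above *Scnn1b*-Tg replicate 2 (78.9).

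Within a genotype, the SD of a member peak over libraries had a median of 0.30 on the log2 scale, beside 0.31 for all peaks. WT replicate 3 and *Scnn1b*-Tg replicate 4 were together the highest 2 libraries at 43 member peaks (15.8%; all peaks 19%) and the lowest 2 at 70 (25.6%; all peaks 18%). Their median log2 difference from the other 5 libraries was 0.15 at member promoters (all promoters 0.19), -0.09 at introns (all -0.09) and -0.21 at distal intergenic peaks (all -0.08). At a *Tnfsf18* peak 7154 bp from the start, for example, the pair had 20.6 and 21.5 reads and the other libraries 56.9 to 143. The pair holds 1 library of each genotype, and its part in the genotype differences was not tested beyond leaving it out. Whether the pair shares a batch of the labels cannot be told from the data columns.

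**Figure D5:**
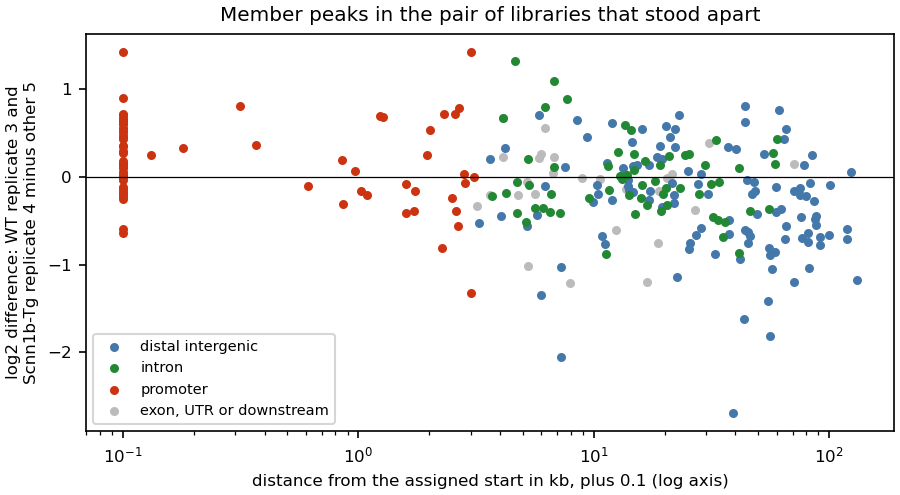
Log2 difference between the mean of WT replicate 3 and *Scnn1b*-Tg replicate 4 and that of the other 5 libraries (vertical axis) at each member peak, against distance from the assigned start in kb plus 0.1 (log axis), coloured by annotation class. Promoter peaks have a median of 0.15 and distal intergenic peaks of -0.21.

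Sequence motifs were counted in the member peaks and in the whole table. In the central 200 bp the AP-1 string TGANTCA occurred in 11.7% of member peaks (all peaks 8.92%), the C/EBP string TTGCNNAA in 13.6% (12.0%), the PU.1 string GAGGAAGT in 4.76% (6.60%), the STAT string TTCNNNGAA in 4.76% (6.61%), the IRF string (GAAA, any 2 bases, GAAA) in 2.93% (2.86%) and the NF-kB motif in 4.76% (2.61%), each counted once per peak on both strands. Median GC content was 49.0% in both. In RefSeq promoters, from 250 bases before to 50 after a start, 36 of the 44 genes matched with 40 promoters. The STAT string occurred in 22.5% of these (all promoters 8.30%), at *Lta*, *Ltb*, *Fas*, *Tnfrsf1a* and *Tnfrsf1b* among others, the AP-1 string in 17.5% (7.81%), the NF-kB motif in 10.0% (4.51%), at *Ltb*, *Tnfrsf8*, *Tnfrsf9* and *Traf3*, the IRF string in 10.0% (3.44%), the PU.1 string in 5.0% (3.20%) and the C/EBP string in 7.5% (10.8%). At *Tnfsf13b* the RefSeq promoters held matches to the AP-1, IRF and C/EBP strings, and because these promoters overlap, the same AP-1 match was counted for both. Strings of different motifs may overlap, and a match is a letter pattern, not a bound site.

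Signalling genes outside the family were counted alongside. Of 40 genes listed for the receptor pathway (mostly death-inducing, ubiquitin and NF-kB components, and also *Adam17*), 39 had 316 peaks. Of these peaks 14 (4.43%) had an unadjusted limma p under 0.05, 10 higher and 4 lower, and 0 an adjusted p under 0.05. Among all peaks 2.01% passed the unadjusted threshold, 1.49% higher and 0.517% lower. The median log2 fold change of the 316 peaks was 0.02, beside -0.01 for all peaks. A peak of *Tnip1*, a ubiquitin-binding inhibitor of NF-kB, held 145, 109 and 159 reads in WT and 229, 218, 207 and 303 in *Scnn1b*-Tg AMs, with no overlap, and a log2 fold change of 0.79 ± 0.21 (limma unadjusted p = 0.00235). At the start of *Tank*, a TRAF-binding adaptor, the limma log2 fold change was 0.78 ± 0.22 (limma unadjusted p = 0.00376). A low distal peak of the caspase inhibitor *Xiap* held 23.8, 27.3 and 38.8 reads in WT and 4.87, 8.16, 11.1 and 17.8 in *Scnn1b*-Tg AMs, also with no overlap, and an intron peak of *Birc2*, an inhibitor of apoptosis and ubiquitin ligase, had 107 to 156 and 157 to 244. An intron peak of the stress kinase gene *Map3k5* had 26.1 to 52.5 and 6.33 to 32.5 reads, with overlap.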

How the data were processed

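ATAC-seq was measured in 7 libraries of sorted AMs (3 WT, 4 *Scnn1b*-Tg). The authors, as their methods state, ran the ENCODE ATAC-seq pipeline on mm10, merged peaks present in at least 2 samples with DiffBind and annotated them with ChIPseeker. The deposited table gives a signal per peak and library, a read count scaled by 1 factor per library. It also holds the authors' own mean levels, fold changes and p-values, which were not used. Dividing each column by its smallest step gave whole reads for 100% of values (tolerance 1e-06 reads), and edgeR 4.0.16 (quasi-likelihood) and DESeq2 1.42.0 were run on these as alternatives.

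The main test was limma 3.58.1 (trend, robust) on log2(signal + 1) over all 90376 peaks, unfiltered, fitting genotype alone, with p-values adjusted by Benjamini-Hochberg. The added 1 understates fold changes of low peaks. A difference was called at an adjusted p under 0.05 with an absolute log2 fold change above 1. Signal was also summed over the peaks of each of 17797 genes. The 1 surrogate variable tried came from sva 3.50.0. Alternatives were pseudocounts of 0.5 and 5, quantile or median scaling, a minimum mean of 20, no trend, and each replicate left out. The labels put a sample of each genotype in batches 1, 2 and 4 and an *Scnn1b*-Tg sample alone in batch 3, but no label ties these to the data columns, so batch could not enter a fit.

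Named were the 15 genes whose best peak had the smallest p, the 10 highest levels per kb within 3 kb of a start, a list of family genes by the same peak (*Tnf*, *Lta*, *Ltb*, *Tnfrsf1a*, *Tnfrsf1b*, *Ltbr*, *Cd40*, *Fas*, *Traf1*, *Traf2*, *Traf3*, *Traf5*), the 5 genes with most peaks, the gene with the smallest p of sums, and the 5 pathway genes of smallest p. Other names were chosen after their values were seen. The members and all lists were chosen with earlier results of these data known. Sequences are from RefSeq GRCm38.p6. A marker gene is not reported here by name.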

Additional observations from a re-analysis of the deposited data

Results flagged for a closer look

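Dixon's criterion was applied to the 4 *Scnn1b*-Tg libraries at 36 named peaks, and a library lay far from the others at 3 of them, where chance flags about 1 in 20. At the *Tnfrsf1b* intron 8 peak *Scnn1b*-Tg replicate 4 had 208 normalized reads, the others 174 to 178. At the *Tnfsf10* peak at the untranslated end of the gene *Scnn1b*-Tg replicate 1 had 34.1 reads, the others 29.9 to 30.1. At the *Cd40* start peak *Scnn1b*-Tg replicate 3 had 307 reads, the others 214 to 227. Groups of 3 libraries were not examined in this way.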

How the results depend on the processing

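No member peak passed an adjusted p under 0.05 in any of the 17 settings tried for peaks (0 peaks each), and the smallest adjusted p of any member peak was 0.0853. Member peaks at an unadjusted p under 0.05 numbered 10 in the reported fit and 19 with 1 surrogate variable. They numbered between 6 (without WT replicate 2) and 14 (without WT replicate 3) when 1 library was left out. With edgeR and with DESeq2 there were 10 each. In the reported fit 2.01% of all peaks passed. That share is not given for the other limma settings or for DESeq2. The counts of 19, 6 and 14, and the 10 of DESeq2, therefore cannot be called particular to the family. Over all peaks, the 1 difference called became 0 in limma without the trend, 0 with edgeR (1752 peaks at an unadjusted p under 0.05), 41 with DESeq2, 50 with 1 surrogate variable and 0 to 0 with a library left out. For sums per gene, the count past an adjusted p went from 0 to 1 without both libraries that stood apart, an alternative chosen after the data were seen, as was leaving out *Tnfsf13b*. The causes were not tested. The log2 fold change of the *Tnfsf13b* sum stayed between -0.63 and -0.46 over its 13 settings, with an adjusted p between 0.529 and 1. No named value changed direction past its spread (0 reversals). Of the values recomputed, 578 stayed within it or on the same side and 14 moved, all of them counts given above. No paired analysis was possible because the data columns are numbered 1 to 4 and no label ties these to the sample or batch numbers of the labels, so the replicate block was not run. Counting error weighs most on the lowest peaks, and 262 of the 273 member peaks had a mean of at least 20.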
